A study of Homo sapiens with 6 samples.

Results

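The lysosome genes described here are 44 genes for the membrane proteins, proton pump, hydrolases and regulators of the lysosome, and they were taken as every probe on the array that carries one of their names. All 44 were found, on 59 of the 50599 probes. Expression was measured on 6 one-color Agilent microarrays in the lines HSC-3, KON, and Ca9-22, all established from human oral squamous cell carcinoma. Each line was transfected either with siDLEU1-2, a small interfering RNA against the long noncoding RNA DLEU1, or with a control siRNA (siCtrl). RNA was collected after 72 h, and 100 ng of it was labeled with Cy3. Every line and siRNA had 1 array, the same transfection protocol is given for all lines, and a single siRNA sequence stands for DLEU1 loss. The 3 lines are therefore the only replicates, and a change within a line has no error of its own. The p-values measure the spread between the lines.

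The lysosome is the acidic compartment in which cells break down proteins, glycans, and lipids that arrive by endocytosis and autophagy. A proton pump, the V-ATPase, acidifies its lumen, soluble hydrolases degrade the cargo, and a coat of heavily glycosylated membrane proteins, chiefly LAMP1 and LAMP2, lines the inner face. Transcription of many of these genes is raised by TFEB and its relatives MITF and TFE3, which bind the E-box CACGTG within a longer element near the transcription start.

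A few sequences show what the results below rest on. LAMP2 makes 3 transcripts that share most of their exons and differ at the end, and the array has 3 probes for them, of which A_23_P416608 is listed for a single one. The first 30 of the 60 bases of each LAMP2 probe are given here, 5′ to 3′, because the probes moved in different directions.
LAMP2, probe A_24_P396231, listed for NM_002294 and NM_001122606, hg19 chrX:119560073-119560132, minus strand: ggatgtatcgatttagagaaccaattaata
LAMP2, probe A_23_P416608, listed for NM_013995, hg19 chrX:119571194-119571253, minus strand: tgcctcccattcactagaaaatgagaaaat
LAMP2, probe A_33_P3410409, listed for all 3 transcripts, hg19 chrX:119575586-119575645, minus strand: ataaatacctttgatctaagggttcagcct

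The promoters of some members hold the E-box. In the RefSeq promoter table (GRCh38.p14), which gives 250 bases before and 50 after each start, 32 of the 44 members had an entry. CACGTG, which reads the same on both strands, occurred in the promoters of 10 of these 32 genes (31.2%), against 8.77% of all 27305 genes in the table. The longer palindrome TCACGTGA, which contains it, occurred in 5 of the 32 (15.6%), against 1.18% of all genes. These 5 were LAMP1, MCOLN1, CTSA, GAA, and ATP6V0D1, and the other 5 with CACGTG alone were CTSD, CTSF, NEU1, CD63, and ARSB. A stretch of 30 bases around the match closest to the start is shown for 4 of them whose knockdown values are described below, with the motif in capitals.
CTSD, chr11:1763957-1763986, minus strand: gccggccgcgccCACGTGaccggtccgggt
CTSA, chr20:45891298-45891327, plus strand: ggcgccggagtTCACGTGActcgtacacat
LAMP1, chr13:113297226-113297255, plus strand: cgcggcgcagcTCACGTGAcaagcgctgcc
MCOLN1, chr19:7522598-7522627, plus strand: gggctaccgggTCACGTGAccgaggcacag
Of the 10 genes with CACGTG, 9 had a probe that could be tested after knockdown. Of their 10 tested probes 1, for CTSD, was called (limma adjusted p below 0.05; 10%, beside 8.5% of all probes tested on the array). The median log2 fold change of the 10 was 0.47, with values from -0.46 for GAA to 1.08 for CTSD. The 6 tested probes of the 5 genes with TCACGTGA had a median of 0.31, and none was called. Of the 22 member genes whose promoter entry lacks CACGTG, 20 were tested, on 28 probes with a median of 0.27, and 4 of these probes (3 of IDS and 1 of CTSL2; 14.3%, beside 8.5%) were called. These are descriptions of letters in a window and not of binding.

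Levels are given as log2 of the processed signal relative to the 75th percentile of the same array, so that 0 is the signal at that percentile, which ran from 200 to 257 on the 6 arrays. Signals of different probes depend on the probe and do not rank the transcripts. The share of probes well above background ran from 43.0% to 45.7% over the arrays. A probe was tested where every line had 1 or both of its arrays well above background, which held for 19956 probes on the array and for 52 probes in 40 of the lysosome genes. Changes are log2 fold changes, siDLEU1-2 minus siCtrl within a line, given as the mean ± SD over 3 lines, and a probe was called where limma, with the line as a block, gave an adjusted p below 0.05 (Benjamini-Hochberg over all 19956). The DLEU1 probe itself was lower after siDLEU1-2 by 10.8-fold (Ca9-22) to 17.1-fold (HSC-3). The keratinocyte list was measured on all of its 15 probes. Of 13 leukocyte probes, 7 were not well above background on any array, and the same held for 5 of 7 fibroblast and 4 of 8 endothelial probes.

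After DLEU1 knockdown, the probes of CTSD, the aspartic protease cathepsin D, and of CTSL2, the cysteine protease now named cathepsin V, rose in all 3 lines. So did 3 probes of IDS, the sulfatase of dermatan and heparan sulfate. LAMP2 was split, with the NM_002294 probe higher and the NM_013995 probe lower. In all, 7 of the 52 probes were called (13.5%), 6 higher and 1 lower, and 3 of the 7 are probes of IDS. Among all tested probes, 8.5% were called, 3.98% higher and 4.52% lower. Counted as genes with a called probe, the members were near the array, at 4 of 40 (10%) beside 9.69% of all tested genes. With the probes of a gene averaged, CTSD and IDS alone were called, 2 of 40 (5%) beside 8.23% of all genes. The share of members called higher was 11.5% and that called lower was 1.92%. Over the 52 probes the median change was 0.27 on the log2 scale, beside 0.01 over all tested probes. Of the 52, 24 were higher in every line (46.2%, beside 26.9% of all tested probes), 9 were lower in every line (17.3%, beside 26.7%), and 19 changed direction between lines. With any one line left out limma called none of the 52, although 15 to 23 of them then had an unadjusted p below 0.05. On the whole array it then called 0 probes without HSC-3, 0 without KON, and 244 (1.22%) without Ca9-22. The mean change of CTSD was 0.995 to 1.14 in these fits and that of the IDS probe A_23_P217475 was 1.17 to 1.41.

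**Figure D1:**
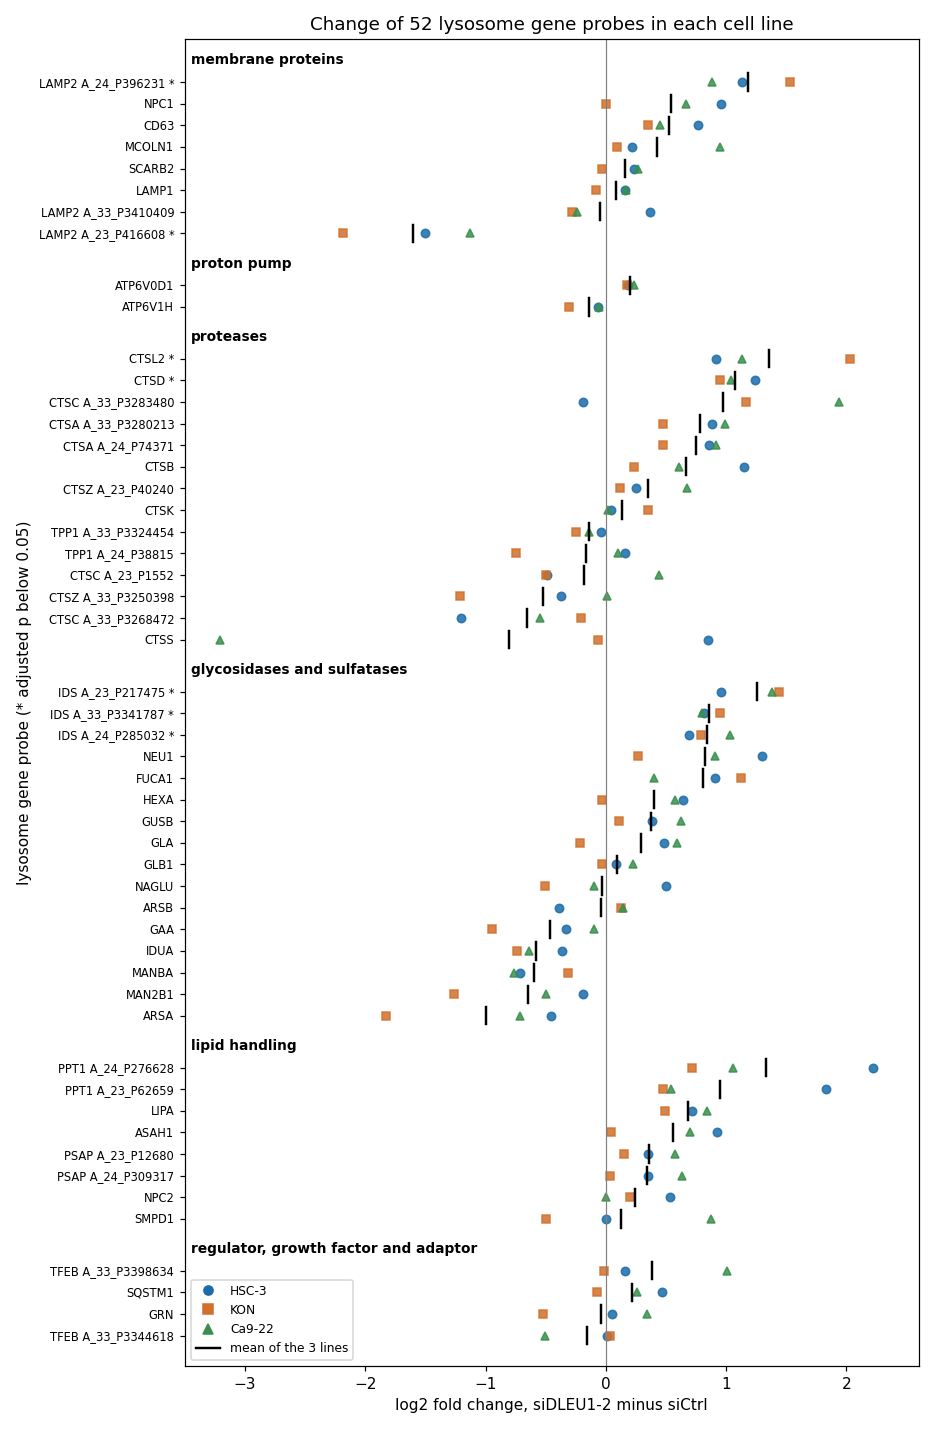
Log2 fold change (siDLEU1-2 minus siCtrl, horizontal axis) of the 52 tested lysosome gene probes, by role, with 1 symbol per cell line and a black bar for the mean of the 3 lines; a star marks the 7 called probes. The 3 IDS probes, CTSD, CTSL2 and the NM_002294 probe of LAMP2 lie above 0 in every line, and the NM_013995 probe of LAMP2 (A_23_P416608) lies below 0 in every line. The CTSS value of Ca9-22, at the far left, rests on a siDLEU1-2 signal not well above background.

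The lines did not contribute alike. In KON the 52 probes had a median log2 fold change of 0.03, whereas HSC-3 and Ca9-22 had medians of 0.35 and 0.45. Over all tested probes, the medians of KON, HSC-3, and Ca9-22 were 0.02, -0.00, and -0.01. Without KON the median over the members was 0.45, and without HSC-3 and without Ca9-22 it was 0.20 and 0.19. This difference between the lines was not tested.

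Among the membrane proteins, LAMP2 stood out because its probes disagreed. The NM_002294 transcript encodes LAMP2A, the receptor of chaperone-mediated autophagy. The probe called the NM_002294 probe here is also listed for NM_001122606, and which of them it read was not tested. It was at -0.11, -2.31, and -0.25 after siCtrl in HSC-3, KON, and Ca9-22, and at 1.02, -0.78, and 0.63 after siDLEU1-2. Each line was higher after knockdown, and the siCtrl and siDLEU1-2 levels overlapped only through KON, where both values were low. The mean log2 fold change was 1.18 ± 0.33 (SD, n = 3 lines; limma adjusted p = 0.034), or 2.19-fold, 2.89-fold, and 1.84-fold in the lines.

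The probe for NM_013995, the LAMP2B transcript, moved the other way. It was at 2.78, 0.67, and 2.03 after siCtrl in HSC-3, KON, and Ca9-22, and at 1.28, -1.51, and 0.90 after siDLEU1-2. Every line was lower after knockdown, with the fall largest in KON. The mean was -1.60 ± 0.53 (SD, n = 3 lines; limma adjusted p = 0.0333), or 2.84-fold, 4.54-fold, and 2.18-fold lower in the lines. It was the only one of the 52 probes past 2-fold in all 3 lines (1.92%), beside 4.38% of all tested probes.

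The probe listed for all 3 LAMP2 transcripts changed little. Its levels were 5.02, 3.55, and 4.06 after siCtrl and 5.39, 3.26, and 3.83 after siDLEU1-2 in the same order of lines, so that HSC-3 was slightly higher and the others slightly lower after knockdown. The mean was -0.05 ± 0.37 (SD, n = 3 lines; limma adjusted p = 0.892). The log2 fold change of the NM_002294 probe exceeded that of the NM_013995 probe by 3.71 in KON, by 2.63 in HSC-3, and by 2.01 in Ca9-22, a mean of 2.79 ± 0.86 (SD, n = 3 lines). Averaging the probes of LAMP2 hides this difference, and the average was -0.16 (limma adjusted p = 0.504).

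No other membrane protein was called. LAMP1 was between 7.10 and 7.85 on the 6 arrays, and its log2 fold change was 0.08 ± 0.14 (SD, n = 3 lines; limma adjusted p = 0.74). The tetraspanin CD63 was higher in each line after knockdown, by 0.76, 0.35, and 0.45 in HSC-3, KON, and Ca9-22, without passing the test (adjusted p = 0.106 from limma). The cholesterol transporter NPC1, the lysosomal cation channel MCOLN1, and SCARB2, the receptor that carries glucocerebrosidase to the lysosome, had means of 0.54, 0.42, and 0.16, and none was called.

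The proton pump members did not pass the test. ATP6V0D1, a subunit of the membrane sector, was at 4.23, 4.93, and 4.40 after siCtrl and at 4.42, 5.11, and 4.63 after siDLEU1-2. It was slightly higher in each line, and its log2 fold change was 0.20 ± 0.03 (SD, n = 3 lines; limma adjusted p = 0.374). ATP6V1H, a subunit of the cytosolic sector, had a mean of -0.14 ± 0.15 (SD, n = 3 lines; limma adjusted p = 0.555). A second ATP6V0D1 probe, listed for the cDNA AK125522, was not well above background on any array.

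**Figure D2:**
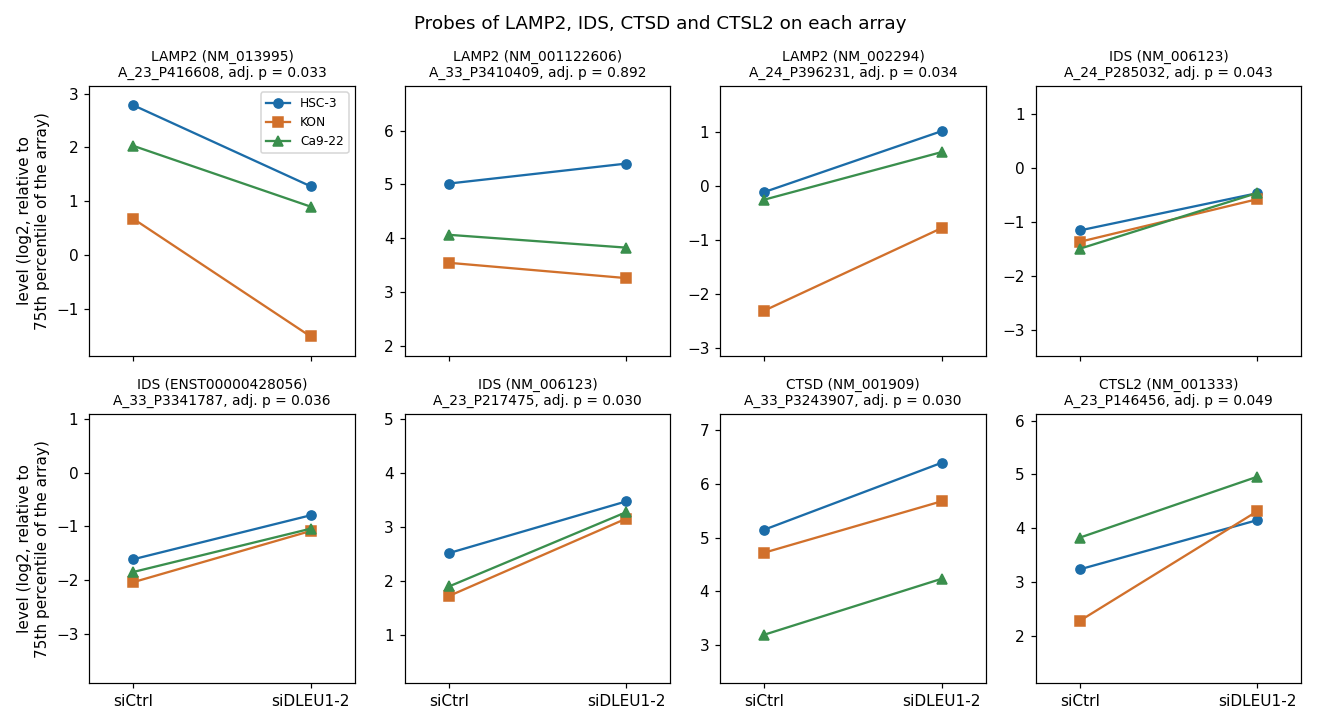
Level of each tested probe of LAMP2, IDS, CTSD, and CTSL2 on the 6 arrays (log2, relative to the 75th percentile of the array; vertical axes of equal span) after siCtrl and siDLEU1-2, with a line joining the 2 arrays of each cell line. The NM_013995 probe of LAMP2 falls in all 3 lines, the NM_002294 probe and the probes of IDS, CTSD, and CTSL2 rise, and the shared LAMP2 probe (adjusted p = 0.892) is nearly level.

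Of the proteases, 2 of 14 tested probes were called, both higher (14.3%, beside 3.98% of all tested probes called higher). CTSD was at 5.15, 4.72, and 3.20 after siCtrl in HSC-3, KON, and Ca9-22, and at 6.39, 5.67, and 4.23 after siDLEU1-2. Each line rose by about the same amount, while Ca9-22 stayed below the others on both arrays. The log2 fold change was 1.08 ± 0.15 (SD, n = 3 lines; limma adjusted p = 0.0301), or 2.36-fold, 1.94-fold, and 2.05-fold.

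CTSL2 was at 3.24, 2.28, and 3.83 after siCtrl and at 4.15, 4.32, and 4.96 after siDLEU1-2, and the groups did not overlap. The rise was largest in KON, the line with the lowest siCtrl level, at 4.09-fold against 1.88-fold in HSC-3 and 2.19-fold in Ca9-22. The mean was 1.36 ± 0.59 (SD, n = 3 lines; limma adjusted p = 0.0493), close to the threshold. The call was lost under quantile normalization, under centering on the probes detected on all arrays, and with probes averaged per gene.

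CTSA, the carboxypeptidase that protects beta-galactosidase and neuraminidase, had both probes higher in every line. The probe for NM_000308 was at 5.94, 6.62, and 6.29 after siCtrl and at 6.80, 7.10, and 7.20 after siDLEU1-2, without overlap. Its log2 fold change was 0.75 ± 0.24 (SD, n = 3 lines) and that of the other probe was 0.79 ± 0.27 (SD, n = 3 lines), and both just missed the threshold, with limma adjusted p = 0.0579 and 0.058. CTSB, a cysteine protease, was higher by 0.23 in KON, by 0.61 in Ca9-22, and by 1.15 in HSC-3, and was not called (adjusted p = 0.129 from limma).

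The probes of CTSC, which activates granule serine proteases, disagreed without a call. Their mean log2 fold changes were 0.97 for the NM_148170 probe, -0.18 for the NM_001814 probe, and -0.65 for the NM_001114173 probe, with limma adjusted p from 0.15 to 0.666. The pair of CTSZ probes also had opposite signs (0.35 and -0.52), and both TPP1 probes were slightly below 0 (-0.16 and -0.14). CTSK had a mean of 0.14. CTSS, a cathepsin of antigen presentation, differed between the lines. Its log2 fold change was -0.07 in KON and 0.85 in HSC-3. In Ca9-22 its probe was not well above background after siDLEU1-2, so only a bound can be given, a level at least 2.07-fold below that of the siCtrl array.

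Of the 16 tested probes for glycosidases and sulfatases, the 3 probes of IDS, a single gene, were called, all higher (18.8%, beside 3.98%). The most 3′ of the IDS probes, A_23_P217475 (hg19 chrX:148568700-148568759, minus strand), was at 2.51, 1.71, and 1.89 after siCtrl in HSC-3, KON, and Ca9-22, and at 3.47, 3.15, and 3.27 after siDLEU1-2. The groups did not overlap, and the lines were closer together after knockdown. The mean log2 fold change was 1.26 ± 0.26 (SD, n = 3 lines; limma adjusted p = 0.0297).

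The other called IDS probes lie upstream, at 148584807 to 148584866 (A_33_P3341787) and at 148585713 to 148585772 (A_24_P285032) on the same chromosome, and had lower signals, nearer to background. A_33_P3341787 ran from -2.03 to -1.61 after siCtrl and from -1.08 to -0.79 after siDLEU1-2. A_24_P285032 ran from -1.49 to -1.15 and from -0.58 to -0.46. Neither overlapped between the siRNAs, and the mean log2 fold changes were 0.86 ± 0.08 and 0.84 ± 0.18 (SD, n = 3 lines; limma adjusted p = 0.0356 and 0.0433). With normexp background correction they were 0.51 and 0.54, and still called. The remaining IDS probe, A_33_P3237266, was not well above background on any array. IDS has a pseudogene, IDSP1, next to it, and whether it shares these probes was not tested. A_23_P217475 and A_24_P285032 are listed for NM_006123, among others, and A_33_P3341787 for ENST00000428056. Which IDS transcripts rose was not tested.

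The other enzymes of this role had means on both sides of 0, and of all 16 probes 6 were higher and 5 lower in every line (37.5% and 31.2%, beside 26.9% and 26.7% of all tested probes). Means above 0.8 without a call were those of NEU1, the lysosomal sialidase, at 0.83 ± 0.52 (SD, n = 3 lines; limma adjusted p = 0.0999), and FUCA1, the alpha-fucosidase, at 0.81 ± 0.37 (SD, n = 3 lines; limma adjusted p = 0.0713). Below 0 in every line were ARSA, the sulfatase of sulfatide, at -0.998, MAN2B1 at -0.65, MANBA at -0.59, IDUA at -0.58, and GAA at -0.46. None of these passed the test, with limma adjusted p from 0.0834 for IDUA to 0.231 for GAA. GAA, the acid alpha-glucosidase of glycogen breakdown, was at 5.36, 4.26, and 5.43 after siCtrl and at 5.03, 3.31, and 5.33 after siDLEU1-2, with the widest gap, of -0.95, in KON. HEXA, GUSB, GLA, GLB1, NAGLU, and ARSB had means from -0.04 to 0.40.

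All 8 probes for lipid handling, of 6 genes, had a mean above 0, beside 10140 of all 19956 tested probes. Of the 8, 7 were higher in every line (87.5%, beside 26.9% of all tested probes), but none was called. In Ca9-22 the change of NPC2, 1 of these 7, was only 0.001. The median log2 fold change of this role was 0.46, the highest of the 6 roles. LIPA, the acid lipase of cholesteryl esters, was at 5.37, 4.07, and 4.65 after siCtrl and at 6.08, 4.56, and 5.49 after siDLEU1-2, a change of 0.68 ± 0.18 (SD, n = 3 lines; limma adjusted p = 0.0599). PPT1, the palmitoyl thioesterase, had means of 1.33 ± 0.79 and 0.95 ± 0.76 (SD, n = 3 lines) on its pair of probes, with limma adjusted p = 0.0755 and 0.133, and the values in HSC-3, at 2.22 and 1.83, were the highest on both. NPC2, the soluble cholesterol carrier, was between 6.66 and 8.62 on the arrays and had a mean of 0.24 ± 0.27 (SD, n = 3 lines; limma adjusted p = 0.387). The acid ceramidase ASAH1, the saposin precursor PSAP on both of its probes, and the acid sphingomyelinase SMPD1 had means from 0.13 to 0.56.

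The regulator, growth factor, and adaptor members showed no called change. TFEB had 2 tested probes, with means of 0.38 ± 0.55 and -0.15 ± 0.30 (SD, n = 3 lines; limma adjusted p = 0.36 and 0.604). In Ca9-22 the first had a change of 1.01 and the second of -0.50, while HSC-3 and KON stayed between -0.02 and 0.16 on both. GRN, the progranulin that is cut to granulins in the lysosome, was at 9.26, 8.07, and 8.15 after siCtrl and at 9.31, 7.54, and 8.49 after siDLEU1-2, with a mean of -0.04 ± 0.44 (SD, n = 3 lines; limma adjusted p = 0.922). SQSTM1, the autophagy adaptor p62, had a mean of 0.22 ± 0.27 (SD, n = 3 lines; limma adjusted p = 0.445).

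The levels of many members differed between the lines, irrespective of the siRNA. The differences were taken from the same limma fit, as the mean of the 2 arrays of each line. Between HSC-3 and KON, 20 of the 52 probes were called (38.5%, beside 36.2% of all tested probes), 16 of them higher in HSC-3. Between HSC-3 and Ca9-22, 14 were called (26.9%, beside 36.6%), 11 of them higher in HSC-3. Between KON and Ca9-22, 20 were called (38.5%, beside 33.2%), 10 in each direction. LIPA was called in all 3 pairs, being highest in HSC-3 (5.72), then Ca9-22 (5.07), then KON (4.31).

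Ca9-22 was low in several hydrolases. FUCA1 was at 2.0 in HSC-3 and 1.35 in KON but at -1.08 in Ca9-22, differences of 3.09 (limma adjusted p = 0.00533) and 2.43 (limma adjusted p = 0.00755). GLA, the alpha-galactosidase of globotriaosylceramide, was at 4.53, 4.78, and 2.54, and CTSD was at 5.77, 5.20, and 3.72. Each of these was below both other lines in Ca9-22 (limma adjusted p from 0.00596 to 0.00934 for GLA and CTSD), and HSC-3 and KON did not pass the test against each other for any of the 3 genes (adjusted p from 0.0606 to 0.485 in limma).

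CTSF and CTSH, a pair of cysteine cathepsins, and SGSH, the heparan sulfamidase, were well above background on all 4 arrays of HSC-3 and KON and on neither array of Ca9-22, so these probes were not tested and only bounds can be given. Each bound sets the mean of the brighter line against the lowest signal well above background on the Ca9-22 arrays. CTSH was at least 106-fold higher in HSC-3 and at least 305-fold higher in KON than in Ca9-22. SGSH was at least 118-fold and 39.9-fold higher, and CTSF at least 36.0-fold and 36.3-fold higher. On both Ca9-22 arrays the values of these 3 probes lay between -5.49 and -4.31.

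Higher in Ca9-22 than in HSC-3 were GUSB, the beta-glucuronidase, by 1.27 (limma adjusted p = 0.0134), the CTSZ probe listed for BC025419, by 1.18 (limma adjusted p = 0.0497), and CTSK, by 0.98 (limma adjusted p = 0.0186). These were the only members called in that direction. The other CTSZ probe was at 1.82, 1.71, and 1.90 in the 3 lines and was called in no pair.

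KON was low in LAMP2 and in some hydrolases. Against HSC-3, KON was lower by 2.45 on the NM_013995 probe of LAMP2 (limma adjusted p = 0.00869) and by 2.0 on the NM_002294 probe (limma adjusted p = 0.00758), and the probe for all transcripts was lower by 1.80 (limma adjusted p = 0.0096). IDUA, the iduronidase, was lower by 1.88 (limma adjusted p = 0.00706). Against Ca9-22, KON was lower by 1.88 and 1.73 on the same pair of LAMP2 probes and by 1.76 for ARSA (limma adjusted p = 0.0147, 0.0103, and 0.0274). The probe for all transcripts was lower in KON than in Ca9-22 by 0.54, which did not pass the test (adjusted p = 0.137 from limma). The opposite changes of the other LAMP2 probes after siDLEU1-2 were seen at the lower level of KON too.

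KON was high in SQSTM1 and in 2 of the CTSC probes. SQSTM1 was at 6.20 in KON against 5.26 in HSC-3 and 5.13 in Ca9-22, with limma adjusted p = 0.0271 and 0.0213. The NM_148170 probe of CTSC was higher in KON than in HSC-3 by 3.02 (limma adjusted p = 0.0168) and than in Ca9-22 by 2.23 (limma adjusted p = 0.0346). The NM_001114173 probe was higher in KON than in HSC-3 by 1.21 (limma adjusted p = 0.0323).

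**Figure D3:**
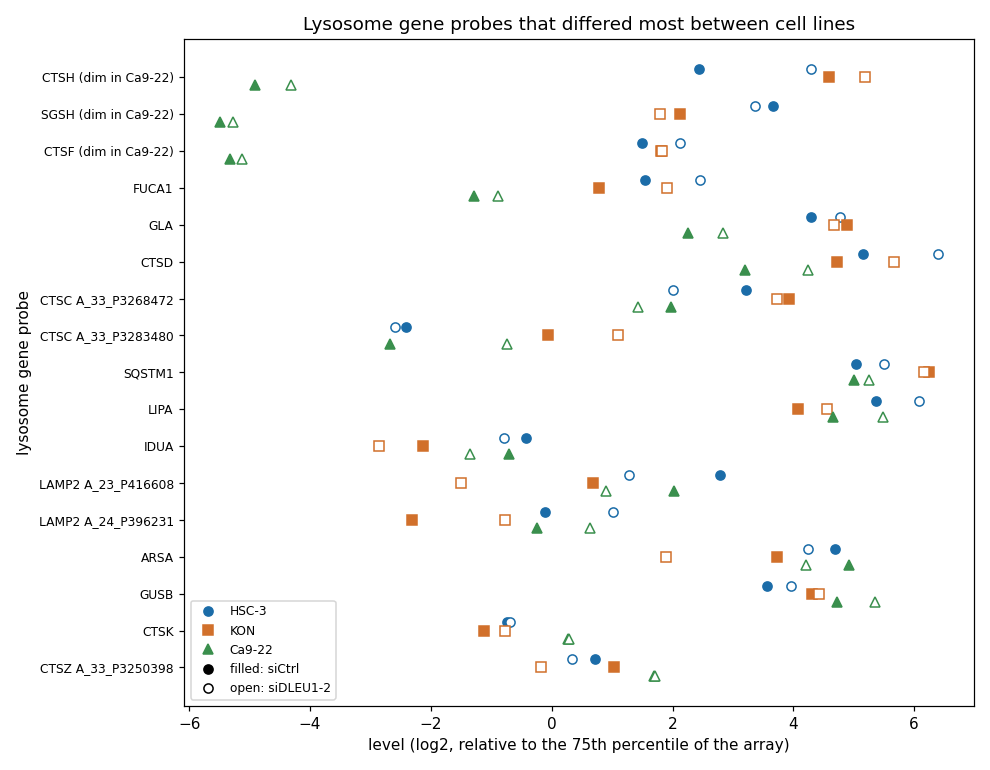
Level (log2, relative to the 75th percentile of the array, horizontal axis) of the lysosome gene probes with the largest called differences between lines, of LIPA, and of CTSF, CTSH, and SGSH, which were not well above background in Ca9-22; filled symbols are siCtrl and open symbols siDLEU1-2 arrays. Ca9-22 lies far to the left for CTSH, SGSH, CTSF, FUCA1, GLA, and CTSD, and KON for IDUA, LAMP2, and ARSA.

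The remaining member without a level was GALC, the galactosylceramidase, whose pair of probes was not well above background on any of the 6 arrays, with values from -5.86 to -5.23. These were cell line RNAs, and in such samples fewer cells with a transcript and less of it per cell cannot be told apart. Several members are also used by macrophages, so leukocyte probes are given beside them. The summed linear level of the 13 leukocyte probes, in multiples of the 75th percentile, was 53.1 on one HSC-3 array and 69.2 on the other, and ran from 3.48 to 4.38 on the arrays of KON and Ca9-22. The range was 3.71 to 53.1 after siCtrl and 3.48 to 69.2 after siDLEU1-2. None of the 4 leukocyte probes tested was called after knockdown (limma; 1 had an unadjusted p below 0.05). PTPRC, which defines leukocytes as CD45, was not well above background on any array with 4 of its 5 probes and on only 2 arrays with the other, while CD14 was at 5.58 and 6.01 in HSC-3. The summed level of the 7 fibroblast probes was 0.768 to 0.921 after siCtrl and 1.75 to 2.96 after siDLEU1-2, through COL1A1, which rose by 1.45 (limma; called). Of the 15 keratinocyte probes 4 were called higher, for KRT18, KRT8, and CDH1, and 3 lower, for TP63, KRT6A, and SFN (26.7% and 20%, beside 3.98% and 4.52% of all tested probes). The part of these shifts in the lysosome results was not tested.

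The genes that work with these members were followed in 6 further lists. Of 19 tested probes for other V-ATPase subunits, 4 were called, all higher (21.1%, beside 3.98% of all tested probes called higher). The largest changes were those of ATP6AP2, the accessory subunit that is also the prorenin receptor, at 0.90 ± 0.25 (SD, n = 3 lines; limma adjusted p = 0.0453), and ATP6V0A1, a subunit of the membrane sector, at 0.87 ± 0.08 (SD, n = 3 lines; limma adjusted p = 0.0344). ATP6V1E1 and ATP6V0C were the other called subunits, at 0.82 and 0.76. The median of the list was 0.29. Under quantile normalization and under centering on the median, 1 of the 19 was called (5.26%, beside 8.26% and 8.56% of all tested probes).

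Other hydrolases gave 1 call in 34 tested probes (2.94%, beside 8.5% of all tested probes), PPT2, a second palmitoyl thioesterase, at 0.73 ± 0.14 (SD, n = 3 lines; limma adjusted p = 0.0493). The PPT2 call was lost under quantile normalization, under centering on the median, and under centering on the probes detected on all arrays (limma adjusted p = 0.0679, 0.0558, and 0.0559). The median of the list was 0.10. Among 22 probes for enzyme sorting and delivery, VPS33A, a subunit of the tethering complexes that fuse vesicles with the lysosome, was the only one called (4.55%, beside 8.5%). It was at 1.21, 0.97, and 0.69 after siCtrl and at 2.53, 2.74, and 2.48 after siDLEU1-2, without overlap, a rise of 1.63 ± 0.27 (SD, n = 3 lines; limma adjusted p = 0.0247). The median of that list was -0.00.

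Other membrane proteins of the lysosome split into both directions, with 2 of 33 probes called higher and 4 lower (6.06% and 12.1%, beside 3.98% and 4.52% of all tested probes). The higher pair were both probes of SLC17A5, the sialic acid exporter, at 2.02 ± 0.58 and 1.68 ± 0.54 (SD, n = 3 lines; limma adjusted p = 0.0289 and 0.0315), the first being 1.34 with normexp background correction. LAMP3, the LAMP relative of dendritic cells, was at 2.21, 1.71, and 2.92 after siCtrl and at -0.60, -0.38, and -0.81 after siDLEU1-2. It fell in every line without overlap, and its mean of -2.88 ± 0.82 (SD, n = 3 lines; limma adjusted p = 0.0257) was the lowest among the lists. MCOLN2, a relative of MCOLN1 on chromosome 1, and its neighbor MCOLN3 fell (limma adjusted p = 0.0247 and 0.0227), but neither was well above background in HSC-3 after siDLEU1-2, and their falls in that line are lower limits set by the lowest detected signal of the array. For MCOLN2 the HSC-3 array came out at least 2.46-fold lower after knockdown, beside 3.27-fold in KON and 2.498-fold in Ca9-22. For MCOLN3 the limit in HSC-3 was at least 2.85-fold. In KON its measured fall was 3.86-fold, onto a siDLEU1-2 signal that was also not well above background, and Ca9-22 had a 3.68-fold fall. With dim signals raised to that floor both were still called (limma adjusted p = 0.0211 and 0.0207), while the mean log2 fold change of MCOLN3 was -0.90 with normexp. A second MCOLN3 probe had a mean of -0.54 and was not called (adjusted p = 0.161 from limma), and the mean of both was -1.25. CD68, a macrophage membrane glycoprotein, fell by 1.39.

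The list of TFE factors, RAG GTPases, and LAMTOR also held FLCN, FNIP1, FNIP2, MTOR, RPTOR, and RHEB. Of its 19 tested probes, 4 were called, all higher (21.1%, beside 3.98%), and they were probes of MITF, FNIP2, and RHEB. No tested probe of TFE3, of a RAG GTPase, or of LAMTOR was called. MITF, a relative of TFEB, was at -1.06, 0.65, and -0.56 after siCtrl and at 0.44, 1.70, and 1.82 after siDLEU1-2, with KON after siCtrl above HSC-3 after knockdown. Its change was 1.65 ± 0.68 (SD, n = 3 lines; limma adjusted p = 0.0433), and a second probe at 1.82 was not called (limma adjusted p = 0.0594). FNIP2, a partner of folliculin, rose by 1.33 ± 0.57 (SD, n = 3 lines; limma adjusted p = 0.0484), and RHEB, the GTPase that activates mTORC1, by 1.10 and 0.69 on its pair of probes. Under quantile normalization 1 of the 19 was called (5.26%, beside 8.26%). Of 46 autophagy probes, 3 were called higher and 2 lower (6.52% and 4.35%, beside 3.98% and 4.52% of all tested probes). ATG5 rose by 1.37 ± 0.12 (SD, n = 3 lines; limma adjusted p = 0.0247) and WIPI2 by 0.92 ± 0.29 (SD, n = 3 lines; limma adjusted p = 0.0479), each on 1 of a pair of probes, and both act in building the autophagosome. Their other probes, at 0.48 and 0.31, were not called (limma adjusted p = 0.103 and 0.277), and for WIPI2 the mean of both was not called either (limma adjusted p = 0.0872). ATG4A, a protease for the LC3 family, fell by 2.499 ± 0.13 (SD, n = 3 lines; limma adjusted p = 0.0227), and BECN1, a subunit of the lipid kinase that starts the autophagosome, fell by 1.29 ± 0.45 (SD, n = 3 lines; limma adjusted p = 0.0392).

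**Figure D4:**
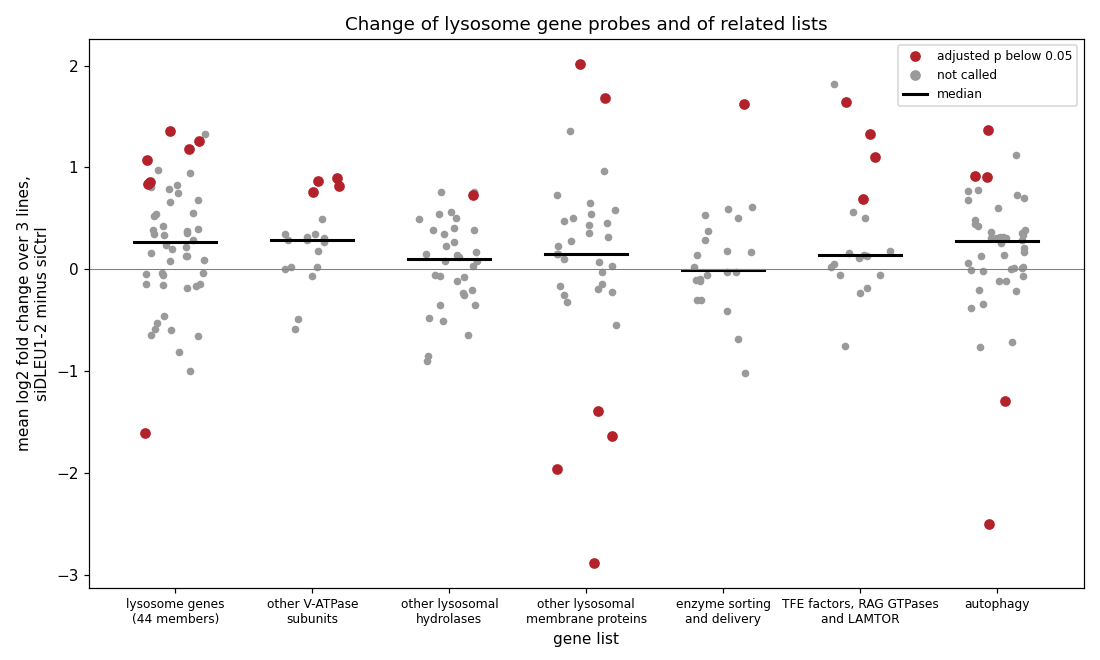
Mean log2 fold change over 3 lines (siDLEU1-2 minus siCtrl, vertical axis) of each tested probe of the lysosome genes and of the 6 further lists, with called probes in red and the median of each list as a black bar; points are spread sideways only to separate them. The medians lie between -0.00 and 0.29, and the called probes of the V-ATPase list all lie above 0 while those of the other membrane proteins lie on both sides.

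Across the 6 lists together, 15 of 173 tested probes were called higher (8.67%, beside 3.98% of all tested probes) and 6 lower (3.47%, beside 4.52%), with a median of 0.16, beside 0.01. With HSC-3 or KON left out limma called none of the 173, as it called none on the whole array, although 43 and 59 had an unadjusted p below 0.05. With Ca9-22 left out it called 3 (1.73%, beside 1.22% of all tested probes). The number called in either direction was 21 (12.1%, beside 8.5% of all tested probes). It was 12 under quantile normalization (6.94%, beside 8.26%) and 14 under centering on the median (8.09%, beside 8.56%), so the share above that of the array was lost under both.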

How the data were processed

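The authors deposited the scanner output of Agilent Feature Extraction 10.7 (version from the submitters' processing notes) for 6 one-color arrays, with a background-subtracted intensity per spot. Their series table holds the same intensity, rounded, and was used as an alternative. Normalization between arrays is not given in the sources used here. Probe positions, on hg19, and gene names are those of the files.

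Here, control and outlier spots were left out, no spot being saturated, spots of a probe were averaged, and each array's 75th percentile was subtracted from its log2 values. limma 3.58.1 (R 4.3.3) was fitted with siRNA and cell line, because the arrays are paired by line: their deviations correlated at 0.81 to 0.83 within pairs. On 6 simulated arrays of 19956 probes, 188 of 200 probes changed by 1.5 (log2) were called, with 14 false calls. The noise was independent and each change the same in every line. Smaller changes, and changes that differ between lines, were not simulated. The number of arrays limits the precision.

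The members and lists were chosen with earlier results of these data known. Named in full were called or over 2-fold members, members whose probes disagree with 1 called, the probe of the highest mean signal per role, the 3 largest called differences per direction between lines, and the 2 highest and lowest called probes per list. Alternatives were other normalizations, background corrections, filters and thresholds, the series table, gene means, no block, and each line left out. All arrays were on 1 slide.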

Additional observations from a re-analysis of the deposited data

Results flagged for a closer look

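The CTSS probe (A_24_P242646) had log2 fold changes of -0.07 in KON, 0.85 in HSC-3, and -3.21 in Ca9-22, a range of 4.06 as the arrays read. The size of the Ca9-22 value and of the range cannot be relied on, since the siDLEU1-2 signal, at -5.45, was below the detection floor of that array at -3.29, and only a change of -1.05 or lower (at least 2.07-fold) can be given. By these values it was the only tested lysosome gene probe with changes of over 1.5-fold in both directions. Its levels after siCtrl were -2.03, -2.39, and -2.24 in HSC-3, KON, and Ca9-22, and after siDLEU1-2 they were -1.18, -2.46, and -5.45, the last not well above background. Each line has 1 array per siRNA, so the difference between the lines was not tested.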

How the results depend on the processing

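When each line was left out in turn, limma called 0, 0, and 244 (1.22%) of all tested probes without HSC-3, KON, and Ca9-22. Of the lysosome gene probes 0 were called, 0 in each direction, while 2 to 4 were over 2-fold in the remaining lines. Without Ca9-22, 13 lysosome gene probes were called between HSC-3 and KON. The shares of all tested probes for the 2-fold and line counts in these fits were not computed, so those counts cannot be set against the array. In the further lists, leaving out a line gave 0 to 2 called probes for other membrane proteins, 0 to 1 for autophagy, and 0 for each of the other 4. Without the replicate block, the paired arrays being treated as unpaired, and without a filter on dim probes, limma called 0 probes on the whole array, 0 lysosome gene probes and 0 in every further list (5 and 20 lysosome gene probes at an unadjusted p below 0.05). Without the filter the median of all probes was 0.14. Of 59 lysosome gene probes, 8 were then called between HSC-3 and KON and 13 between KON and Ca9-22. The shares of all 50544 probes called in these pairs were not computed, so these counts cannot be set against the array. With probes averaged per gene, 2 genes were called (CTSD and IDS; 5%, below the 8.23% of all genes), 2 higher and 0 lower, 0 were over 2-fold in all lines, the mean of LAMP2 was -0.16, and 2 genes of the TFE list were called. At an adjusted p below 0.1, 15 probes were called (28.8%, beside 19.1% of all tested probes), 12 higher (23.1%, beside 9.25%) and 3 lower (5.77%, beside 9.82%), and at 1.5-fold 8 probes passed in all 3 lines (15.4%, beside 11.8%). Of all tested probes, 8.26% were called under quantile normalization, 8.56% under median centering, 8.23% under the percentile of detected probes, 11.6% under normexp, and 11.4% under the filter on all 6 arrays. Beside these, called probes of other V-ATPase subunits were 1 under quantile normalization and 1 under median centering; of other hydrolases 0 under these and under the percentile taken over detected probes, and 2 under normexp and under the filter on all 6 arrays; of enzyme sorting 2 under normexp; of the TFE list 1 under quantile normalization and 2 under the percentile of detected probes; and of autophagy 3 under quantile normalization, 3 under median centering, and 8 under the filter on all 6 arrays. GRN was at 0.20 without KON. The median of the lysosome gene probes stayed between 0.18 and 0.45 in all 13 alternatives, and the number called was 6 to 10 under the 7 changes of scaling, background correction, filter on all 6 arrays, floor, and series table. A slide block was not fitted, as there was 1 slide. Changes of dim probes are poorly measured. The causes were not tested.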
